A study of Mus musculus with 2 samples.

Results

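The guanylate-binding proteins (GBPs) and the immunity-related GTPases (IRGs) are enzymes that cells make in response to interferon and that bind and cleave GTP at internal membranes. The 10 genes described here are Gbp2, Gbp3, Gbp4, Gbp5, Gbp6, Gbp7, Gbp8 and Gbp9 of the first family and Igtp (also called Irgm3) and Irgm1 of the second, taken by their GENCODE M21 symbols. They are 10 of the 55536 GENCODE genes in the large gene table, and 8 of them have a row among the 22457 genes of the small count table, where Gbp5 and Gbp6 were not matched by identifier. Poly(A) RNA had been sequenced from inflammation-experienced regulatory T cells, CD4 T cells that restrain immune responses under the control of Foxp3. They are labelled as primary, male, 7 weeks of age and descended from activated regulatory T cells, and the labels used here name no strain, genotype, tissue or inflammatory agent. There was 1 biological replicate with 2 technical libraries, called library 1 and library 2, and no control or other condition, so nothing below compares inflamed with uninflamed cells.

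Interferon gamma and type I interferons act through Janus kinases and STAT proteins, which switch on GBP and IRG genes through short promoter elements called GAS and ISRE. GBPs gather on vacuoles and on the surface of invading microbes, where they help to break these open and to expose their contents to inflammasomes. Igtp and Irgm1 belong to the regulatory branch of the IRGs, which sits on the cell's own membranes and restrains the effector IRGs.

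Depth was 26593267 expected counts in library 1 and 22036331 in library 2, summed over GENCODE genes. In the small table the totals were 7911181 and 6972139. The T cell markers (6 of 6) and the regulatory T cell markers (5 of 5) were detected in both libraries, at summed TPM of 5392 and 5371 and of 784 and 759. Other cell types had these values. Of the erythroid list 5 of 6 were detected, with summed TPM of 8494 and 94.7. For the macrophage list (5 of 8 detected) the sums were 32.9 and 71.0, with Fcgr1 at 0 in both libraries and C1qc at 0 in library 1. Lyz2, at a TPM of 23.8 and 3.72, was called higher in library 1, and the other 6 macrophage genes tested were called higher in library 2. The NK cell list (3 of 5) summed to 190 and 309 with Ncr1 at 0 in library 1, the B cell list (5 of 5) to 601 and 546, and the endothelial list (2 of 5) to 85.5 and 84.9 with Kdr and Cldn5 at 0 in library 1. Nearly all of the endothelial sum was Pecam1 (83.2 and 76.4), and the other 4 endothelial genes were called higher in library 2. Beyond counting error the libraries also differed across genes, with a chi-square of 33.5 per degree of freedom. The part of these other cells in the values below was not tested, and in bulk RNA more cells of a type and more RNA per cell cannot be told apart.

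The upstream sequences are shown for letters of interferon-response elements. Members were chosen by symbol, but from families known to be switched on through such elements, so matches were likely from the choice alone. Of the 6 shown, 4 are related neighbours on chromosome 3 and not independent cases. RefSeq start sites (GRCm38.p6) were given for 6 of the 10 members, 1 each except for Gbp3, which has 2. The first Gbp3 start is shown, since the window of the second lies largely in Gbp3 exons. Each line holds bases upstream of the start site, 5′ to 3′ on the gene's strand, with capitals marking letters of an ISRE or a GAS. The windows of Gbp5 and Gbp2 end short of the start site because only 30 bases that GENCODE assigns to exons are printed.
Gbp2, chr3:142620413-142620631, plus strand: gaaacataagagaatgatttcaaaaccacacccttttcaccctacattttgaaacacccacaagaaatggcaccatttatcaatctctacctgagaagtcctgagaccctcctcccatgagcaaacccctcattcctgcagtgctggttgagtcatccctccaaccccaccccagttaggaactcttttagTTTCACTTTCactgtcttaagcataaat
Gbp3, chr3:142559794-142560043, plus strand: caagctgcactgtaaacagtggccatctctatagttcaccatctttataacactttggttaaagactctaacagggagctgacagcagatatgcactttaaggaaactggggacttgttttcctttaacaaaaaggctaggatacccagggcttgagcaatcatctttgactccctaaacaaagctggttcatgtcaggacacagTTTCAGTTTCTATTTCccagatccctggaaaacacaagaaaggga
Gbp5, chr3:142496684-142496929, plus strand: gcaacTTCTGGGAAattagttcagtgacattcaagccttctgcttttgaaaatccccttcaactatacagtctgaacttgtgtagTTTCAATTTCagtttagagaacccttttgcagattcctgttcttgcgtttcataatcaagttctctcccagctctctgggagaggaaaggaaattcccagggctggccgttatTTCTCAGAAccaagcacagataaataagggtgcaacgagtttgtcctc
Gbp7, chr3:142530086-142530335, plus strand: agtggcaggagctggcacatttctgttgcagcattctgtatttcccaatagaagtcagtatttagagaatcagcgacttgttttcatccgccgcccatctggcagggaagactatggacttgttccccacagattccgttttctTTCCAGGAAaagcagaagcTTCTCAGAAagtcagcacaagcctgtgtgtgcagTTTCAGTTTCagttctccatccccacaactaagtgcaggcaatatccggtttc
Igtp, chr11:58199306-58199555, plus strand: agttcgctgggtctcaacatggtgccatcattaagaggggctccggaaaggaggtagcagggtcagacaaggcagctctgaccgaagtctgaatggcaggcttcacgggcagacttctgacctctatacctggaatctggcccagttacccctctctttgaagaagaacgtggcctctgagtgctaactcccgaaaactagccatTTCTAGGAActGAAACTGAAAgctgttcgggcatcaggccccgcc
Irgm1, chr11:48871421-48871670, minus strand: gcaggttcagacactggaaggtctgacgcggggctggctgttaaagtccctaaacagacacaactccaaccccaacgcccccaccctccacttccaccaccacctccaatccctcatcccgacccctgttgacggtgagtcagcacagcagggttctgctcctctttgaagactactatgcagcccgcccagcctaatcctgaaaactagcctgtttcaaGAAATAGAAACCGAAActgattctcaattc

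An ISRE was searched on both strands as the letters GAAA, any 2 bases and GAAA again, and a GAS as TTCNNNGAA, which reads the same on both strands, in the 250 bases before each start. ISRE letters were found for 6 of 6 members, against 3.46% of 27025 genes in the whole table. By windows they were found in 6 of 7, against 2.98% of 32851. The window without them belongs to the second Gbp3 start, which also held no GAS and is the nearer of the pair to the start of Gbp3-202, the leading Gbp3 model in the transcript tables. GAS letters were found for 3 of 6 members, namely Gbp5, Gbp7 and Igtp, against 8.13% of genes, and in 3 of 7 windows, against 7.02%. In 5 of the 6 members the ISRE letters lay between -59 and -15, counted from the start site. Those of Gbp5 lay farther out, at -165 to -156. Both Gbp3 and Irgm1 held a pair of overlapping ISRE matches, Gbp3 at -45 to -36 and -39 to -30, and Irgm1 at -30 to -21 and -24 to -15. The ISRE letters of Gbp2 lay within an exon that GENCODE places upstream of the RefSeq start. These are letter matches in a reference genome, with no measurement of binding in these cells.

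**Figure D1:**
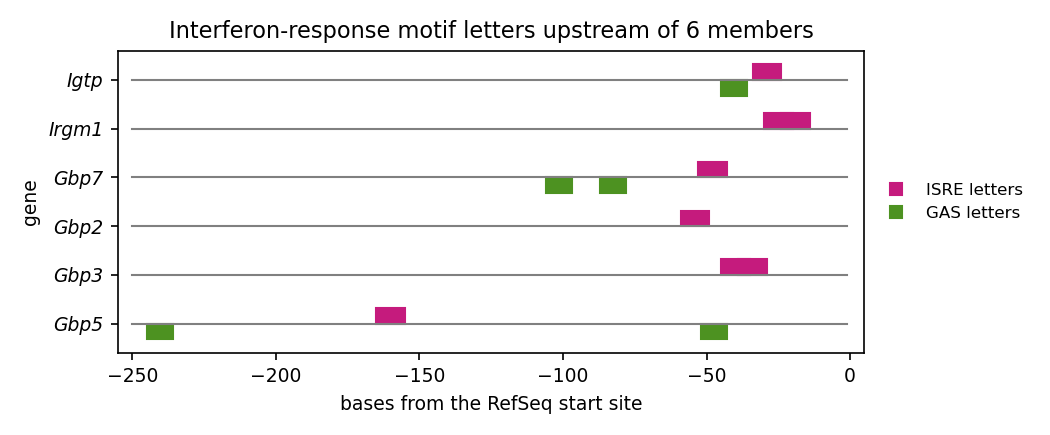
Position of ISRE letters (pink) and GAS letters (green) in bases from the RefSeq start site for the 6 members with a start site in the table, with Gbp3 drawn for its first start only. All 6 hold at least 1 ISRE match and 5 of them hold it between -59 and -15, while GAS matches appear in Gbp5, Gbp7 and Igtp.

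All 10 members were detected, meaning a TPM (a level per transcript length, scaled to the same total in each library) of at least 1 in both libraries. The same held for 49.1% of protein-coding genes and 24.7% of all GENCODE genes. The median of the members' mean TPM was 98.38, against 21.32 over the 13718 detected genes. Together the members took 0.179% of the counts of library 1 (95% Wilson interval 0.178 to 0.181) and 0.185% of those of library 2 (0.183 to 0.187), and their summed TPM was 1046 and 1082. Mean TPM ran from Gbp5, at the 48.1 percentile of detected genes, to Igtp, at the 95.6 percentile, a 13.2-fold range. Levels below are TPM, with the SD over the libraries (n = 2), which measures only how the libraries differ and says nothing of spread between animals.

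Igtp, whose product protects lipid droplets and endoplasmic reticulum from effector IRGs, was the most abundant of the 10 (ENSMUSG00000078853.8, chr11:58199556-58207591, plus strand, mm10). Library 1 gave a TPM of 258 and library 2 a TPM of 262, a mean of 260.2 ± 2.65. Irgm1, which is needed for resistance to intracellular bacteria and for T cell survival after interferon exposure, lies elsewhere on the chromosome (ENSMUSG00000046879.7, chr11:48861968-48871683, minus strand). It stood at 98.5 and 124, a mean of 111.4 ± 18.3, the largest SD among the members. Igtp was thus above Irgm1 in both libraries.

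The 4 members on chromosome 5 lie on the minus strand within 280 kb and are closely related copies, of which Gbp4 was the highest. Gbp4 (ENSMUSG00000079363.7, chr5:105115767-105139586) had TPM values of 187 and 188, a mean of 187.4 ± 0.530. For Gbp6 (ENSMUSG00000104713.4, chr5:105270702-105293698) the values were 96.1 and 113, a mean of 104.4 ± 11.9. Gbp4 was nearly level between the libraries, while the TPM of Gbp6 was higher in library 2. Gbp9 (ENSMUSG00000029298.15, chr5:105077630-105139539) stood at 99.5 and 91.3, a mean of 95.38 ± 5.76. Gbp8 (ENSMUSG00000034438.16, chr5:105014150-105139540) stood at 87.5 and 91.2, a mean of 89.36 ± 2.57. Gbp9 was above Gbp8 in both libraries, but in library 2 the 2 genes were nearly level, at 91.31 and 91.18.

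The 4 members on chromosome 3 lie on the plus strand within 144 kb and spanned a wider range of levels. Gbp7 (ENSMUSG00000040253.15, chr3:142530342-142550149), which takes part in defence against intracellular parasites and bacteria, stood at a TPM of 102 and 101, a mean of 101.4 ± 0.240. Gbp2 (ENSMUSG00000028270.12, chr3:142620602-142638008), which carries a lipid anchor and coats parasite vacuoles, stood at 64.2 and 58.3, a mean of 61.22 ± 4.19. Gbp7 was the only member of this cluster near the level of those on chromosome 5. Gbp3 (ENSMUSG00000028268.14, chr3:142560026-142573209) stood at 35.6 and 31.6, a mean of 33.59 ± 2.79. Gbp5 (ENSMUSG00000105504.4, chr3:142493978-142522344), which carries a lipid anchor and promotes inflammasome assembly, stood at 18.0 and 21.5, a mean of 19.73 ± 2.50. Summed over each chromosome, TPM was 470.1 and 483.1 on chromosome 5, 356.8 and 386.5 on chromosome 11, and 219.3 and 212.6 on chromosome 3.

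In descending order of mean TPM the members were Igtp, Gbp4, Irgm1, Gbp6, Gbp7, Gbp9, Gbp8, Gbp2, Gbp3 and Gbp5. Of the 9 neighbouring pairs, the ranges over the libraries overlapped in 2, Irgm1 with Gbp6 and Gbp6 with Gbp7. Rank was the same in both libraries for 6 of the 10. Irgm1, Gbp6, Gbp7 and Gbp9 changed places, with Gbp7 at rank 3 in library 1 and rank 5 in library 2.

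**Figure D2:**
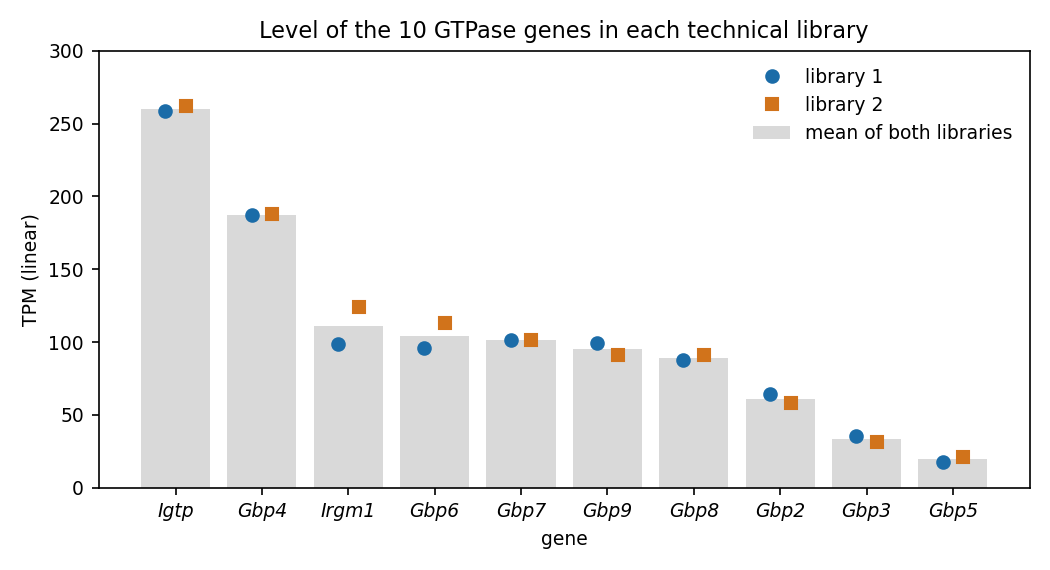
TPM (linear axis) of the 10 genes in library 1 (circles) and library 2 (squares), with bars for the mean of both, ordered by mean. Igtp and Gbp4 stand above the rest, 5 genes lie between 87.5 and 124 in every library, and Gbp2, Gbp3 and Gbp5 lie below them.

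Counts were compared between the libraries with a 2-sided exact binomial test on library shares, adjusted over 24253 genes by Benjamini-Hochberg. It compares these libraries of 1 sample, not conditions. At an adjusted p under 0.05, 3 members were higher in library 2 (Irgm1, Gbp6 and Gbp5), 3 were higher in library 1 (Gbp3, Gbp2 and Gbp9) and 4 did not pass. Over all genes tested 70.3% were called, 46.4% higher in library 2 and 23.9% higher in library 1, so 6 of 10 is near the background. With DESeq2 size factors the members split into 2 higher in library 2 and 7 higher in library 1, and all genes into 9468 and 7794, against 11255 and 5785 with library totals. The median log2 ratio of library 2 over library 1 for detected genes was 0.01 with library totals and -0.14 with DESeq2 size factors. For the members it was 0.03 and -0.12, so their shift is near that of detected genes. The direction for single members is therefore given with both scalings below.

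The differences were small in size. None of the 10 reached 1.5-fold, which 53.7% of all genes tested did. Among the 7560 genes with at least 1000 counts, a class that holds all 10 members, 72.6% were called and 8.57% reached 1.5-fold. The median absolute log2 ratio was 0.137 over the members, 0.192 over those well-counted genes and 0.696 over all genes tested. The median signed log2 ratio of library 2 over library 1 was 0.03 for the members, -0.01 for the well-counted genes and 0.23 for all genes tested. TMM factors lowered every log2 ratio by the same amount, a shift of -0.11, and DESeq2 size factors by -0.14.

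Irgm1 differed most, with 3484 counts in library 1 and 3639 in library 2. After division by library totals this was a log2 ratio of 0.33 (95% exact counting interval 0.27 to 0.40, exact binomial test, adjusted p = 2.21e-21), or 1.26-fold. It was also higher in library 2 with both other scalings and in the small table, where 1458 and 1464 counts gave a log2 ratio of 0.19 (exact binomial test, adjusted p = 0.00122). Gbp6 followed in the same direction, with 5148 and 5025 counts and a log2 ratio of 0.24 (0.18 to 0.29, exact binomial test, adjusted p = 1.29e-15), or 1.18-fold, and it stayed higher there with both other scalings. Gbp5, with 916 and 881 counts, had a log2 ratio of 0.22 (0.08 to 0.35, exact binomial test, adjusted p = 0.00281), but the adjusted p was 0.160 with TMM and 0.364 with DESeq2 factors by the same exact test.

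Gbp3 and Gbp2, both on chromosome 3, were higher in library 1 in both tables and with all 3 scalings of the large table. Gbp3 had 1543 and 1082 counts and a log2 ratio of -0.24 (-0.35 to -0.13, exact binomial test, adjusted p = 5.76e-05). In the small table its 951 and 716 counts gave -0.23 (exact binomial test, adjusted p = 0.00382). Gbp2 had 2628 and 1942 counts and a log2 ratio of -0.17 (-0.25 to -0.08, exact binomial test, adjusted p = 0.000262). These are folds of 1.18 and 1.12. In the small table Gbp2 had 1476 and 1169 counts and a log2 ratio of -0.15 (exact binomial test, adjusted p = 0.0137). Gbp9, with 6346 and 4875 counts, had a log2 ratio of -0.11 (-0.16 to -0.06, exact binomial test, adjusted p = 0.000154). It too was higher in library 1 with all 3 scalings, but its small-table value of -0.07 did not pass (exact binomial test, adjusted p = 0.291).

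The remaining 4 did not pass in the large table with library totals. Gbp4, the deepest counted with 10365 and 8617, had a log2 ratio of 0.00 (-0.04 to 0.05). For Igtp, with 8277 and 6961 counts, it was 0.02 (-0.02 to 0.07), for Gbp8, with 3273 and 2778, 0.03 (-0.04 to 0.11), and for Gbp7, with 5736 and 4943, 0.06 (0.00 to 0.11). The intervals are narrow, and each of these 4 turned negative with TMM and DESeq2 factors. Gbp4 was then called higher in library 1 with both (exact binomial test, adjusted p = 1.96e-06 and 1.16e-10). Gbp7 and Gbp8 were called so with DESeq2 factors alone (exact binomial test, adjusted p = 0.00269 and 0.00500). Igtp was called higher in library 2 in the small table (2095 and 1998 counts, log2 ratio 0.11, exact binomial test, adjusted p = 0.0236) and higher in library 1 with TMM factors (log2 ratio -0.09) and DESeq2 factors (-0.12) in the large table. The small table was scaled by its library totals alone, so these opposite calls of Igtp differ in scaling as well as in table. For the 8 members with a row in the small table, library 2 was higher for 2 and library 1 for 2. Of its 14483 genes tested 54.3% were called, 32.2% higher in library 2 and 22.1% higher in library 1, and 37.7% reached 1.5-fold, which none of the 8 did.

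**Figure D3:**
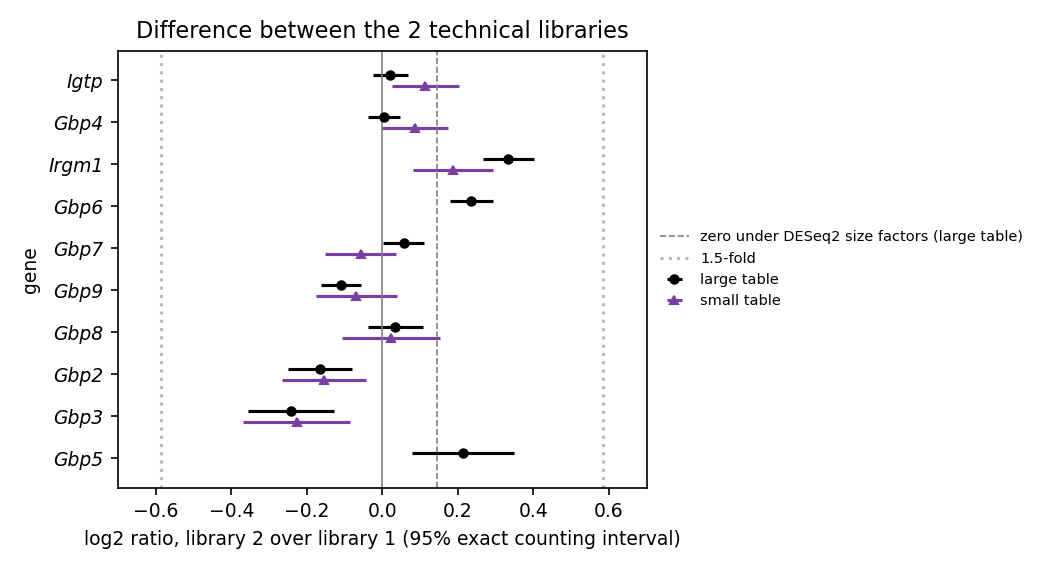
Log2 ratio of library 2 over library 1 with 95% exact counting intervals, for the large table (circles) and the small table (triangles, absent for Gbp5 and Gbp6), ordered as the levels. The solid line is 0, the dashed line is where 0 falls with DESeq2 size factors, and all 10 genes lie inside the dotted 1.5-fold lines.

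Close copies can share reads, so the coding sequences of the members were compared (global alignment, GENCODE M21 transcripts, mm10). Identity among the chromosome 5 members was 89.7% to 92.8% over 6 pairs. Among those on chromosome 3 it was 61.3% to 78.3%, and between the chromosomes 61.4% to 75.6%. Igtp and Irgm1 were 68.1% identical and a GBP with an IRG 53.4% to 57.5%. The identity that unrelated sequences reach in such alignments was not measured. Gbp6 and its neighbour Gbp10, which is not a member, were 98.4% identical.

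The first 120 coding bases show how close these copies are. Each line runs 5′ to 3′ from the start codon of the longest annotated coding sequence, and capitals mark bases that differ from Gbp4.
Gbp4: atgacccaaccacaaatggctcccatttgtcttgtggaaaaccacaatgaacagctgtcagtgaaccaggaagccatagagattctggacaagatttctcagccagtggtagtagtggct
Gbp6: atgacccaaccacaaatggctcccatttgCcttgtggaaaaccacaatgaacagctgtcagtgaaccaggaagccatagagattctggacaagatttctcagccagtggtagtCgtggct
Gbp10: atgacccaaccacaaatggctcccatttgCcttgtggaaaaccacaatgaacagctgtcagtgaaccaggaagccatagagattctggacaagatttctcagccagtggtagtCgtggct
Gbp9: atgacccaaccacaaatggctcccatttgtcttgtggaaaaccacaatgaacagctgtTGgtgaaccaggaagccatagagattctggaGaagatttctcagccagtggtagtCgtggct
Gbp8: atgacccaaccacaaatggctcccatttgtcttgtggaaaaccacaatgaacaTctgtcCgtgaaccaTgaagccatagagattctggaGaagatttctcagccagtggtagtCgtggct

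Over this stretch Gbp6 and Gbp10 each differed from Gbp4 at 2 bases, and the printed lines of Gbp6 and Gbp10 are the same. Gbp9 differed at 4 and Gbp8 at 5. The Gbp8 line comes from the model Gbp8-202, which held 0 counts in both libraries.

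Of all windows of 100 bases in a gene's transcripts, the share also present in another gene was 64.5% for Gbp6, 5.16% for Igtp and 4.39% for Gbp8, and for Gbp7 562 of 5612 windows were shared. It was 1.65% or less for Gbp9, Gbp4, Gbp3 and Gbp5, and 0 for Gbp2 and Irgm1. Shorter windows were shared more often. At 50 bases the share was 70.7% for Gbp6, 18.1% for Gbp8, 12.7% for Gbp7, 11.8% for Igtp and 8.05% for Gbp9. For Gbp4 it was 7.78%, for Gbp3 3.75%, for Gbp2 2.03%, for Gbp5 1.44% and for Irgm1 0.379%. Of its windows of 100 bases, Gbp6 shared 59.0% with Gm43302, a gene model that overlaps it, and 36.3% with Gbp10. For Gbp7 the partner was the processed pseudogene Gm43802 (9.59%), which was listed at a TPM of 0 in both libraries. The deposited posterior SD, which measures how firmly reads were assigned, was largest for Gbp6, at 1.47% of its count in library 1 and 1.92% in library 2, and 0 for Irgm1. Gbp10 stood at a TPM of 25.2 and 36.7 with an SD of assignment of 6.01% and 5.12%. Pooled, Gbp6 and Gbp10 gave a log2 ratio of 0.26, beside 0.24 for Gbp6 alone. This pool left out Gm43302, which shared more windows of 100 bases with Gbp6 than Gbp10 did. The part of shared reads in the difference of Gbp6 between the libraries was not tested.

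The transcript tables divide each gene's TPM among its annotated models. The most abundant model by TPM was the same in both libraries for 10 of 10 members. Models annotated as protein-coding held nearly all of the TPM for Gbp2 (100% in library 1 and 99.4% in library 2), Gbp3, Gbp7 and Igtp (100% in both) and Irgm1 (100.0% and 98.7%). For Gbp5 it was 87.6% and 83.2%. The 4 chromosome 5 members had lower coding shares, and these were lower in library 2 than in library 1 for all 4. The same direction was seen for Gbp2, Gbp5 and Irgm1, so it was not particular to chromosome 5.

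For Gbp4 the coding share was 41.0% in library 1 and 37.3% in library 2. Its leading model was Gbp4-202, annotated as a target of nonsense-mediated decay, with 56.9% and 60.2%. The coding share of Gbp4 by counts, which weight long models more, was 22.1% and 18.3%. Gbp6 had coding shares of 57.7% and 54.2%, with 25.9% and 33.1% in a nonsense-mediated decay model and 16.3% and 12.7% in a retained-intron model. Gbp8 had 63.8% and 56.9%, with most of the rest in a model annotated as a processed transcript, at 33.1% and 38.0%. Gbp9 had 74.8% and 61.7%, with the remainder in the retained-intron model Gbp9-203. These classes are annotation, and the shares are estimates from short reads with no error given, so the level of a gene is not the level of its coding RNA.

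The largest shifts between the libraries were in Gbp3, Gbp9 and Igtp. Gbp3-203 moved by 15.7 points, from 33.0% to 17.3%, beside Gbp3-202 at 67.0% and 77.4%. Gbp9-203 moved by 13.1 points, from 25.2% to 38.3%. Igtp-201 moved by 11.6 points, from 81.3% to 92.9%. For Gbp3 and Igtp all these models are coding, while for Gbp9 the shift lay between coding and retained-intron models. With counts in place of TPM, the leading model stayed the same between libraries for 9 of 10, the exception being Gbp9 (Gbp9-201 in library 1 and Gbp9-203 in library 2).

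**Figure D4:**
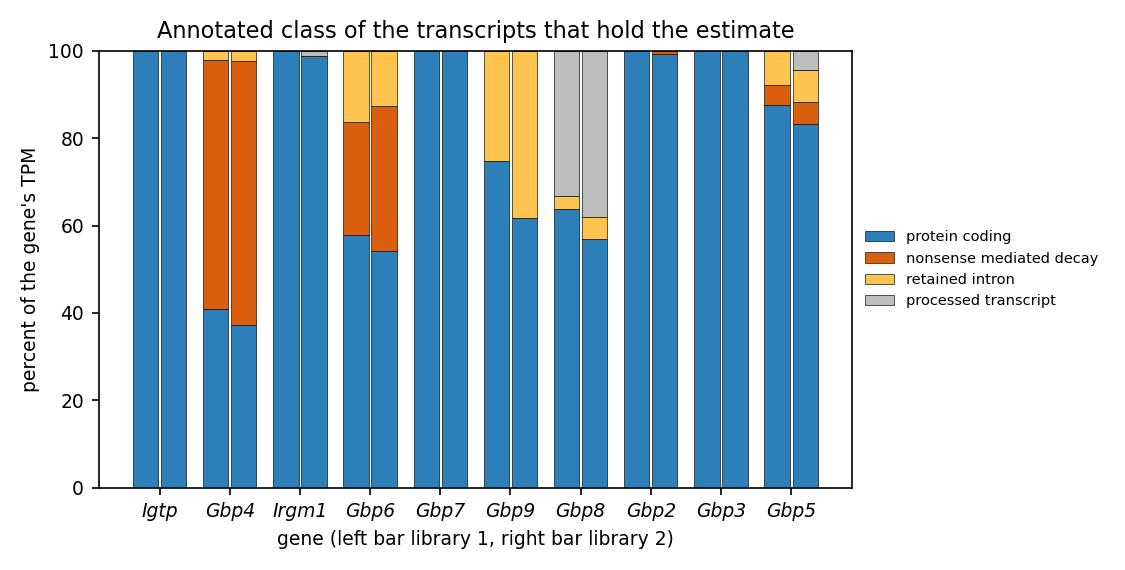
Percent of each gene's TPM held by transcript models of each annotated class, with library 1 as the left and library 2 as the right bar of a pair. Gbp4, Gbp6, Gbp8 and Gbp9 on chromosome 5 have lower coding shares than the other 6 genes, down to 41.0% and 37.3% for Gbp4.

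On chromosome 5 some models of neighbouring genes start in the same place. The first exon of Gbp8-201 (61 bases, chr5:105139480-105139540) and that of Gbp9-202 (60 bases) lie wholly within exons of Gbp4, far upstream of their own second exons. Gbp8-201 has 10 exons and had TPM values of 55.9 and 51.9. Gbp9-202 has 11 exons and stood at 38.7 and 35.3. These are the leading models of Gbp8 and Gbp9 by TPM. On chromosome 11 the first exon of Irgm2-201 (162 bases) likewise lies within Igtp exons. Reads within these exons cannot be given to 1 gene by position, and whether the joined models were transcribed was not tested.

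**Figure D5:**
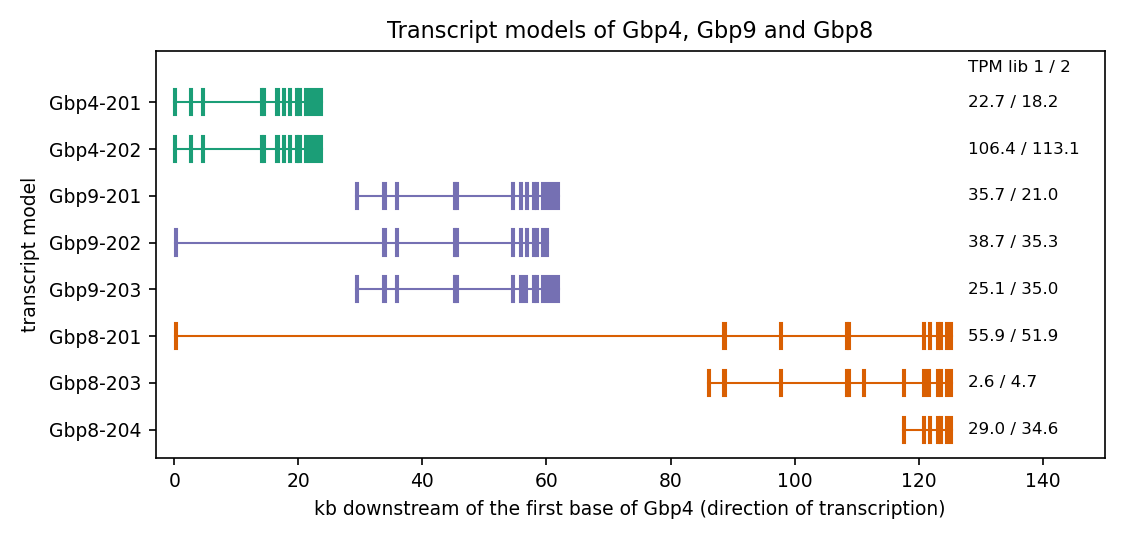
Exons (boxes) of selected transcript models of Gbp4, Gbp9 and Gbp8, in kb downstream of the first base of Gbp4, with the TPM of each model in library 1 and library 2 at the right. Narrow exons are widened to be visible. Gbp9-202 and Gbp8-201 begin near the first base of Gbp4 and continue into the exons of their own genes.

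The other genes of the pathway were taken from lists that were chosen with earlier results of these data known. Of 15 other interferon-inducible GTPases 14 were detected, and together they held a summed TPM of 1010 and 975.7, close to the sum of the 10 members. Ifi47 and the Tgtp proteins are effector or related IRGs. Ifi47 stood at 405 and 346, Tgtp2 at 200.4 and 211, Tgtp1 at 161 and 166, and Iigp1, an effector IRG, at 72.2 and 62.0. Tgtp1 and Tgtp2 are near-identical copies, so their division is uncertain. Gbp2b, the copy next to Gbp2 and 82.5% identical to it, was the one not detected, at 1.22 and 0.49. The tables disagreed on it, with 56 and 18 counts in the large table but 518 and 496 in the small one. Library 2 was higher for 6 and library 1 for 7, against 46.4% and 23.9% of all genes tested, while 2 did not pass. With DESeq2 size factors 3 and 9 were called, against 9468 and 7794 of 24253 genes. Of the 15, 6 reached 1.5-fold, against 53.7% of all genes tested.

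Upstream of the members, 5 of 6 interferon ligands and receptors were detected, and both chains of each receptor were among them. The exception was Ifnb1, which encodes interferon beta, at a TPM of 0.43 and 1.05. The other ligand, Ifng, which encodes interferon gamma, stood at a TPM of 13.3 and 23.4, and was 1.74-fold higher in library 2 by counts. Ifng was called so with library totals, TMM and DESeq2 factors and in the small table. Ifngr1 stood at a TPM of 117 and 148, Ifngr2 at 68.5 and 57.1, Ifnar2 at 88.2 and 75.7 and Ifnar1 at 71.6 and 77.9. The first chain of each receptor was higher in library 2 and the second chain in library 1. The call of Ifnar1 was lost with TMM and DESeq2 factors, and neither second chain was called in the small table. In this list library 2 was higher for 3 and library 1 for 2, against 46.4% and 23.9% of all genes tested, while 1 did not pass. Of 13 signalling proteins and transcription factors 12 were detected, and Batf2 had 0 counts in both libraries, which allows a CPM of up to 0.113 and 0.136. Jak1, a kinase bound to the receptors of both interferon types, stood at 525 and 492, and the transcription factors Irf1 and Irf2 stood at 324 and 352 and at 140 and 117. Of the 12 tested, library 2 was higher for 5 and library 1 for 3, against the same 46.4% and 23.9%, while 4 did not pass. With DESeq2 size factors 4 and 6 were called, against 9468 and 7794 of 24253 genes. Jak1 was higher in library 1 but was called the other way in the small table.

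Downstream, the autophagy proteins that place these GTPases on vacuoles were detected for 10 of 10 genes. Gabarap stood at a TPM of 337 and 319, Gabarapl2 at 301 and 298, Map1lc3b at 186 and 189 and Atg3, the enzyme that helps attach them to lipid, at 59.5 and 72.0. Only Atg3 was higher in library 2, with 4 higher in library 1 and 5 that did not pass, or 7 higher in library 1 with DESeq2 factors. Of all genes tested, 23.9% were higher in library 1 with library totals, and 7794 of 24253 with DESeq2 factors. Among 6 inflammasome genes 5 were detected, with Pycard, the adaptor, at 215 and 246, Gsdmd, the pore former, at 132 and 167, Casp1 at 49.9 and 60.7 and the DNA sensor Aim2 at 42.0 and 51.7. Nlrp3 had 0 counts in library 1 and 4 in library 2, too few to test, and 0 and 12 in the small table, where it was called higher in library 2. All 5 that were tested in the large table were higher in library 2, as were 46.4% of all genes tested. With TMM factors 3 of the 5 were called so, against 9827 of 24253 genes, and with DESeq2 factors 2, against 9468. In the small table library 2 was called higher for 3 of 6, namely Casp1, Gsdmd and Nlrp3, against 32.2% of its genes. Of the 7 macrophage markers tested 6 were higher in library 2 too, while Lyz2 was higher in library 1, with 500 and 64 counts. The part of macrophages in the inflammasome values was not tested. The median log2 ratio of the 5 was 0.24, beside 0.03 for the members.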

How the data were processed

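Polyadenylated RNA was sequenced from 1 biosample in 2 technical libraries, which form 1 group. The large table of genes and that of transcripts were deposited with expected counts, TPM and FPKM from an alignment to the transcriptome (GENCODE M21 on mm10), as the deposited description states. Expected counts share reads that map to several genes, per the file headers. The deposited tables also hold the percent of a gene's TPM in each transcript and, as a score, the posterior SD of each count, per the file headers. Whole-number counts make up the small table, for which the authors used GENCODE M4 with alignments to mm10, as their description states. Aligner, quantifier and strand use were not given in the sources used here, so overlapping genes are uncertain.

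Symbols, positions and transcript classes came from GENCODE M21, to which 22195 of the 22457 rows of the small table were matched by identifier. Rows of the large table that name no gene held 0.201% and 0.235% of the counts and were left out. Expected counts were rounded to whole numbers. Genes with at least 10 counts summed over the libraries entered a 2-sided exact binomial test against the libraries' shares of the total (scipy 1.17.1), with Benjamini-Hochberg adjustment over all genes tested and genes were called at adjusted p-values under 0.05. Log2 ratios are library 2 over library 1 after adding 0.5 counts. The test was checked on simulated data that held counting error only. That check does not cover the differences between these libraries beyond counting error. Intervals are exact or Wilson at 95% and, like the limit of 3 counts for a count of 0, cover counting error only, since PCR copies are not independent. The alternatives were TMM factors (edgeR 4.0.16, R 4.3.3), DESeq2 1.42.0 size factors, other minimums of counts and TPM, FPKM with 0.1 added, 5 added counts, the small table and each library alone. Coding sequences were aligned with Biopython 1.88. Protein sequences were not used here, so the planned description of protein motifs was not made.

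The members and the gene lists were chosen with earlier results of these data known. The text names all 10 members, the 4 genes of each pathway list with the highest mean TPM, any pathway gene called at 2-fold or more with at least 100 counts, and marker genes at 0 in a library. Of the other genes named, Gbp10, Gbp2b, Irgm2, Gm43302 and Gm43802 were named for sequence shared with members, and Batf2, Ifnb1 and Nlrp3 for not being detected, after their values were seen. Ifng, Pecam1 and Lyz2 were also named after their values were seen. Of the genes taken by this rule, some are not reported here.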

Additional observations from a re-analysis of the deposited data

How the results depend on the processing

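All 10 members were detected at a TPM threshold of 0.1 or 5, by FPKM and in each library alone. The number of members higher in library 1 rose from 3 to 5 with TMM factors and 7 with DESeq2 factors, since these lower every ratio. The number higher in library 2 was 2 with either and in the small table. Of the 24253 genes tested, 7305 were higher in library 1 with TMM and 7794 with DESeq2 factors, against 5785 with library totals. Those higher in library 2 numbered 9827 with TMM and 9468 with DESeq2 factors. Log2 ratios changed sign for Gbp4 (-0.10 with TMM, -0.14 with DESeq2), Gbp7 (-0.0526, -0.0884 and, in the small table, -0.0572), Gbp8 (-0.0745 and -0.11) and Igtp (-0.0878 and -0.12). Gbp5 lost its call with TMM (0.11) and DESeq2 (0.07) and Gbp9 in the small table (-0.07), while Igtp gained one there (0.11). The calls of Gbp2, Gbp3 and Irgm1 held in all 3 of these alternatives and that of Gbp6 in both scalings. The members' median log2 ratio ranged from -0.12 with DESeq2 to 0.03 with library totals. Over all genes tested, a minimum of 100 counts left 4721 higher in library 2 and 4345 higher in library 1 of 12609, against 11255 and 5785 of 24253, and the small table gave 4664 and 3196 of 14483. No paired analysis was possible because there was 1 group, whose 2 libraries are technical replicates of 1 biosample. With 1 biosample the spread between animals is unknown, and depth limits Gbp5 most, with 916 and 881 counts.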

Other observations

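As for Gbp2b, the tables disagreed on Gm43302, the gene model that overlaps Gbp6, which was chosen after its values were seen. It had 156 and 229 expected counts in the large table and 644 and 669 in the small table, where Gbp6 has no matched row. Its posterior SD was 57.8% and 44.0% of its count. For the 8 members with rows in both tables, the large count was 1.51 to 4.89 times the small one, around the ratios of the totals, 3.36 and 3.16. The tables also differ in annotation release, M21 and M4, and their rows were matched by identifier. Whether the rule of counting or the annotation makes these differences was not tested.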
